A study of Bos taurus with 34 samples.

Results

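LCK, GATA3 and NKG7 are genes of T cells and natural killer (NK) cells, and their transcripts were followed in peripheral white blood cells (PWBC) of 17 heifers. GATA3 was taken by its identifier, ENSBTAG00000017243, and LCK (ENSBTAG00000012695) and NKG7 (ENSBTAG00000009137) by their symbols in the supplementary tables of the study. They are 3 of the 27570 genes counted, and all 3 were among the 10942 genes whose CPM, the count of a gene scaled to a common library total, reached 2 in at least 5 libraries. The gene choice was not independent of the data, since each appears in results the study drew partly or wholly from the same heifers. GATA3 and NKG7 are in its list of genes that differed between heifers pregnant from insemination and heifers left without a pregnancy. That list spans 2 years of sampling. LCK is in the study's table of coexpressed pairs, drawn wholly from these 17 heifers, beside EMC10.

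Blood was drawn right after artificial insemination (AI) from crossbred Angus-Simmental beef heifers, all synchronized for estrus and all inseminated from the same sire. The 6 AI-preg heifers conceived to that insemination, the 6 NB-preg heifers conceived later to bulls in natural breeding, and the 5 non-pregnant heifers did not conceive in the season. All were yearlings without any other treatment that separates the groups, so the groups differ in an outcome that came after the draw. Each heifer gave 1 PWBC library, made from the buffy coat after lysis of red cells and therefore from a mixture of white cells that was not sorted. Library totals ran from 4184999 counts in non-pregnant heifer 101 to 67192941 in AI-preg heifer 99, and the group medians were 32535945 in AI-preg, 19195350 in NB-preg and 8175887 in non-pregnant heifers.

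LCK is a kinase of the SRC family that is held at the coreceptors of T cells and phosphorylates the T cell receptor complex when antigen is bound. GATA3 is a zinc finger transcription factor that T cells need to develop in the thymus, and later to become type 2 helper cells. NKG7 is a protein of the granule membrane in NK cells and cytotoxic T cells and takes part in the release of those granules.

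The label of the tissue was checked against cell markers. PTPRC, the common antigen of white cells, was present in every library at 125 to 3230 CPM. The B cell genes CD22 and CD79A were also counted in every library, at 7.74 to 608 CPM and 3.56 to 504 CPM. Of the 11 neutrophil genes listed, 4 could be found by symbol, and S100A12, a calcium-binding protein of neutrophils and monocytes, ran from 74.8 to 11800 CPM. No gene of the lists for gamma delta T cells, monocytes or red cells carried a symbol here, so those cells were not assessed.

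Some libraries stood apart over all genes. In average-linkage clustering of the 10942 genes, heifers 114, 115, 116 and 121 formed a cluster of 4 that held animals of all groups. Non-pregnant heifers 94, 107 and 113 lay at one end of the first principal component, which held 45.4% of the variance, with scores of 104, 81.3 and 115. The next heifer, NB-preg 108, had 69.5, and non-pregnant heifer 115 lay at the other end with -136. Differences between groups are given with and without these libraries where leaving them out changes the direction.

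LCK varied more than most genes. In AI-preg heifers its abundance went from 7.04 to 247 CPM around a median of 80.0. In NB-preg heifers it went from 37.1 to 216 CPM around a median of 56.8. In non-pregnant heifers LCK stood at 401 CPM in heifer 94, 41.0 in heifer 101, 288 in heifer 107, 342 in heifer 113 and 3.32 in heifer 115. The non-pregnant group thus held the 3 highest libraries of all and also the lowest, and the groups overlapped. The lowest value rests on 27 counts, with a 95% Poisson interval of 2.19 to 4.83 CPM that covers counting error only, and the range across heifers was 121-fold. The SD of log2(CPM + 1) over all 17 heifers was 1.85 for LCK against a median of 0.94 over genes, and 97.7% of genes had a smaller SD.

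GATA3 was the steadiest of the 3 genes. Among AI-preg heifers it went from 13.7 to 32.2 CPM, with a median of 20.9. Among NB-preg heifers it went from 8.60 to 28.6 CPM, with a median of 19.0. In non-pregnant heifers GATA3 stood at 41.2 CPM in heifer 94, 31.4 in heifer 101, 40.8 in heifer 107, 38.9 in heifer 113 and 14.4 in heifer 115. The non-pregnant heifers with the most LCK, 94, 107 and 113, again lay above every pregnant heifer, heifer 101 lay between the 2 highest AI-preg heifers, and heifer 115 lay near the low end. The range across heifers was 4.79-fold, and the SD of 0.63 on the log2 scale was larger than that of only 14.7% of genes.

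By median, NKG7 showed a different order of the groups. Its mean was still highest in non-pregnant heifers, at 30.9 CPM, against 24.3 in NB-preg and 19.0 in AI-preg heifers. Its lowest, median and highest values were 7.60, 18.3 and 29.8 CPM in AI-preg heifers. They were 13.9, 21.4 and 41.2 CPM in NB-preg heifers. Among non-pregnant heifers NKG7 stood at 69.6 CPM in heifer 94, 11.5 in heifer 101, 20.4 in heifer 107, 50.3 in heifer 113 and 2.83 in heifer 115. Only heifers 94 and 113 exceeded every pregnant heifer, while heifer 107, high in LCK and GATA3, had an NKG7 level in the middle of the pregnant heifers. The value of heifer 115 was the lowest of all and rests on 23 counts, with a 95% Poisson interval of 1.79 to 4.24 CPM.

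**Figure D1:**
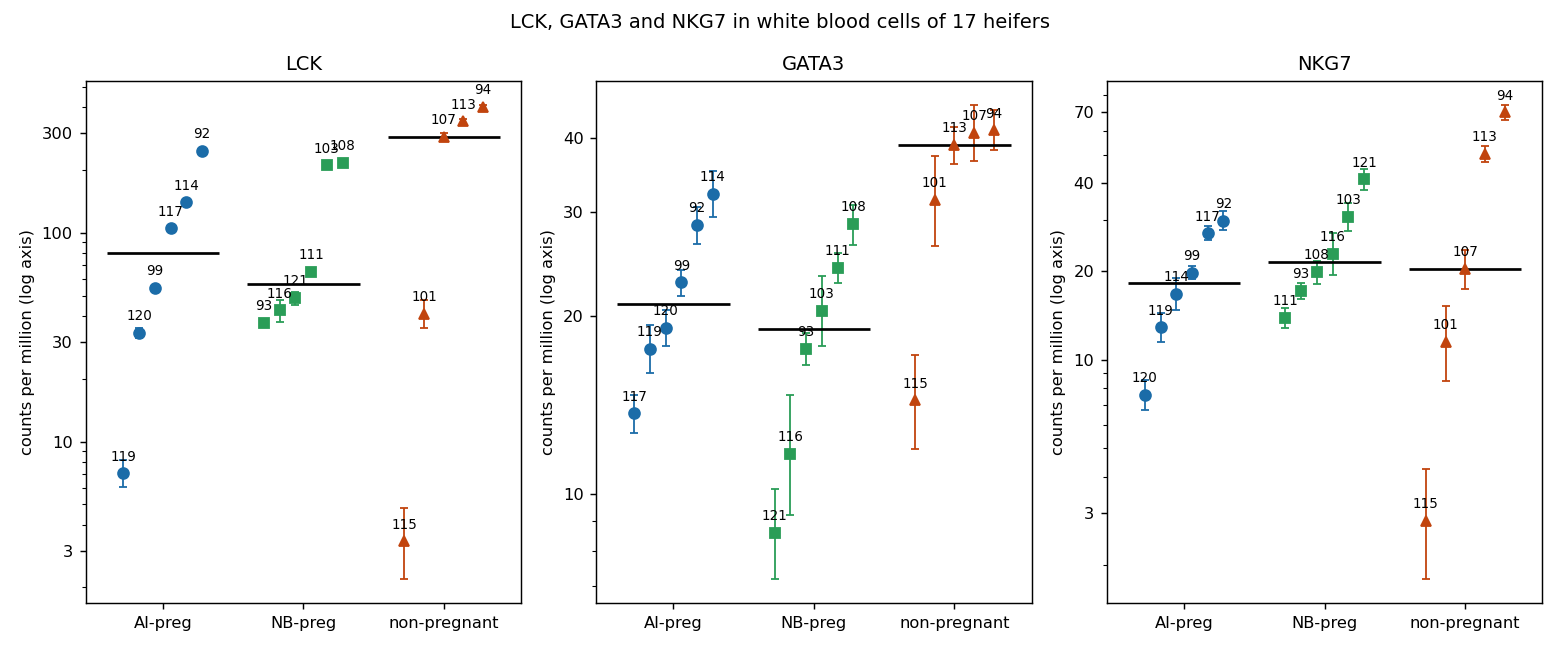
Abundance of LCK, GATA3 and NKG7 in each of 17 heifers, as CPM on log axes, by group; numbers name the heifers, black lines are group medians and bars are 95% Poisson intervals of the count. The non-pregnant group spans from 3.32 to 401 CPM for LCK, wider than either pregnant group.

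By median, LCK and GATA3 had the order non-pregnant, AI-preg, NB-preg, and NKG7 had the order NB-preg, non-pregnant, AI-preg. The mean CPM of LCK put the pregnant groups in the other order, at 97.9 in AI-preg and 103 in NB-preg heifers. All 12 pregnant heifers lay below the non-pregnant median of LCK and of GATA3, and 7 of 12 lay below that of NKG7. With library totals and all heifers, the 95% interval of each difference between groups in the edgeR tests below included 0. In other fits given below, some unadjusted p values of GATA3, LCK and NKG7 were under 0.05.

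Whether abundance on the day of AI differed with the later outcome was tested with edgeR's quasi-likelihood test, in a fit of all 10942 genes with Benjamini-Hochberg adjustment. The log2 fold change of LCK in AI-preg minus non-pregnant heifers was -1.14 ± 0.87 (SE, n = 6 and 5), with a 95% interval of -2.94 to 0.67 and an adjusted p of 0.781 in edgeR. That of GATA3 was -0.58 ± 0.43, with an interval of -1.47 to 0.31 and an edgeR adjusted p of 0.781. NKG7 gave -0.70 ± 0.60, an interval of -1.96 to 0.55 and an edgeR adjusted p of 0.788. All 3 estimates were negative, and all 3 intervals included 0.

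In NB-preg minus non-pregnant heifers (n = 6 and 5), LCK had a log2 fold change of -1.06 ± 0.87 (SE) with a 95% interval of -2.87 to 0.75 and an edgeR adjusted p of 0.809. GATA3 had -0.85 ± 0.43, an interval of -1.74 to 0.04 and an edgeR adjusted p of 0.778, from an unadjusted p of 0.0605. NKG7 had -0.35 ± 0.60, an interval of -1.61 to 0.91 and an edgeR adjusted p of 0.904. Both of these comparisons use the same 5 non-pregnant heifers, so their shared sign is not a repeat.

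The comparison of AI-preg with NB-preg heifers came from the same fit of 3 groups. The log2 fold change of AI-preg minus NB-preg was -0.08 ± 0.83 (SE, n = 6 and 6) for LCK, 0.27 ± 0.41 for GATA3 and -0.35 ± 0.58 for NKG7. Their 95% intervals were -1.80 to 1.65, -0.58 to 1.12 and -1.56 to 0.85, and the interval of LCK leaves room for a difference of over 2-fold either way. With the 2 pregnant groups averaged, pregnant minus non-pregnant heifers gave -1.10 ± 0.73 for LCK, -0.71 ± 0.36 for GATA3 and -0.53 ± 0.52 for NKG7. The edgeR adjusted p values of this last comparison were 0.623, 0.560 and 0.724. Plain means of log2(CPM + 1) differed less for LCK, at 6.13 in pregnant and 6.55 in non-pregnant heifers. They were 4.34 and 5.01 for GATA3 and 4.39 and 4.36 for NKG7, so on that scale NKG7 was not lower in pregnant heifers.

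None of the 3 genes was called at an adjusted p of 0.05 in edgeR's quasi-likelihood test in any of the 4 comparisons, against 0% of the 10942 genes tested in each. At an unadjusted p under 0.05, that test gave 585 genes in AI-preg minus non-pregnant, 672 in NB-preg minus non-pregnant, 16 in AI-preg minus NB-preg and 986 in pregnant minus non-pregnant heifers. LCK, GATA3 and NKG7 were not among these genes in any comparison. For GATA3 this depended on the scaling, the tool and the heifers included. For LCK it depended on heifer 115, and for NKG7 on heifers 94, 107 and 113. The unadjusted p of GATA3 in edgeR with TMM factors was 0.101 in AI-preg, 0.0283 in NB-preg and 0.0267 in pregnant minus non-pregnant heifers. In DESeq2, which also differs in its test, it was 0.0208, 0.00406 and 0.00319 in the same order. Without heifer 115, the edgeR p was 0.0191 for GATA3 in NB-preg minus non-pregnant heifers, and in pregnant minus non-pregnant heifers it was 0.0185 for GATA3 and 0.0386 for LCK. Without heifer 108, it was 0.0362 for GATA3 in NB-preg and 0.0441 in pregnant minus non-pregnant heifers, and without heifer 114 it was 0.0496 in the latter. Without heifers 114, 115, 116 and 121, it was 0.0181 for GATA3 in AI-preg and 0.0143 in pregnant minus non-pregnant heifers. Without heifers 94, 107 and 113, chosen after seeing the data, the edgeR p of NKG7 was 0.0341 in NB-preg minus non-pregnant heifers. In pregnant minus non-pregnant heifers it was 0.0438. These log2 fold changes of NKG7 were 1.77 and 1.59, opposite in sign to the fit of all heifers. Only heifers 101 and 115 remained as non-pregnant. The adjusted p was at least 0.135 in each of these fits. The share of all genes under an unadjusted p of 0.05 also changed. In pregnant minus non-pregnant heifers it was 9.01% with library totals and all heifers, 9.75% with TMM factors and 13.8% in DESeq2. It was 21.5% without heifer 115, 18.7% without heifers 114, 115, 116 and 121, and 1.9% without heifers 94, 107 and 113. In NB-preg minus non-pregnant heifers it was 6.14% with all heifers and 17.2% without heifer 115. DESeq2 called 5 genes in AI-preg minus non-pregnant, 11 in NB-preg minus non-pregnant, 0 in AI-preg minus NB-preg and 44 in pregnant minus non-pregnant heifers. In the same order edgeR's likelihood ratio test called 0, 0, 0 and 18, again without LCK, GATA3 or NKG7. The study's own rule keeps a gene when DESeq2 and the likelihood ratio test each give it an unadjusted p no higher than 0.03, also with any single heifer left out. It passed 0.649% of genes in AI-preg minus non-pregnant, 0.804% in NB-preg minus non-pregnant and 0.0183% in AI-preg minus NB-preg heifers, and none of the 3 genes. GATA3 came nearest, in NB-preg minus non-pregnant heifers, with an unadjusted p of 0.00406 in DESeq2 and of 0.0649 in edgeR's likelihood ratio test.

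**Figure D2:**
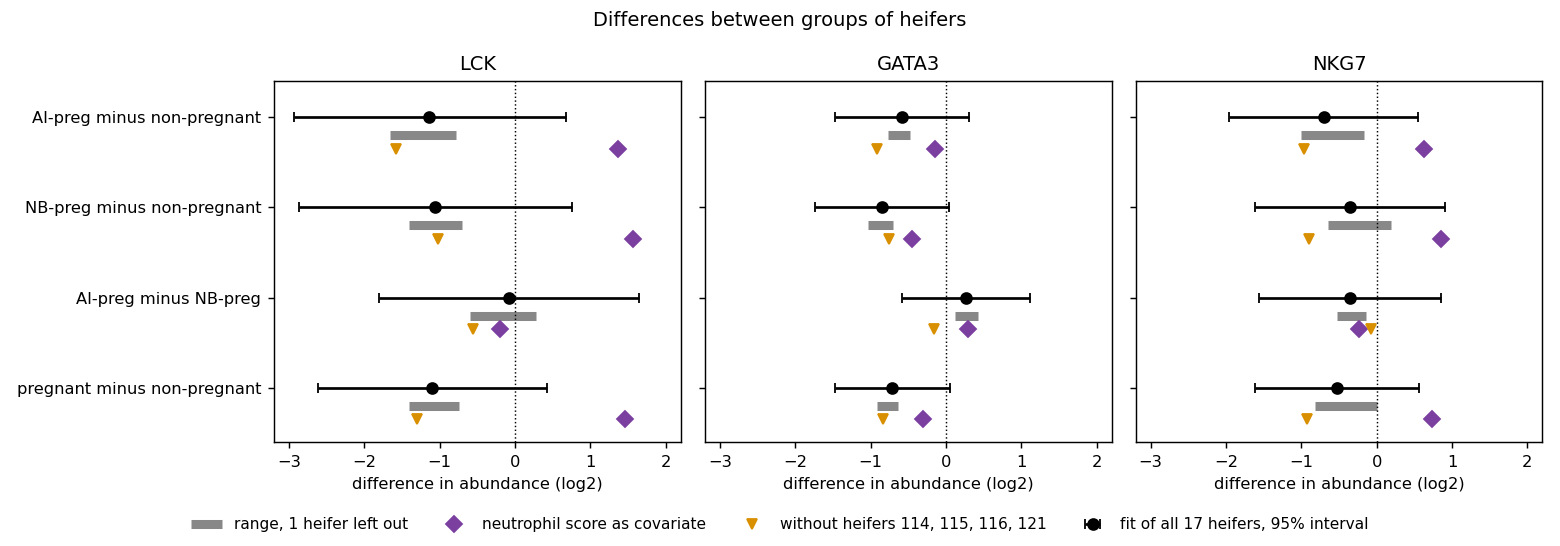
Log2 differences in abundance of LCK, GATA3 and NKG7 for 4 comparisons; black points and bars are edgeR estimates with 95% intervals, grey bars the range with 1 heifer left out, purple diamonds the fit with a neutrophil score as covariate and orange triangles the fit without heifers 114, 115, 116 and 121. Every 95% interval includes 0. The covariate moves the point estimates of LCK and NKG7 to the other side of 0 against non-pregnant heifers, and the error of these estimates is not drawn.

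The size of these differences was also computed with heifers left out. Without heifers 94, 107 and 113, an alternative chosen after the data were seen, LCK in pregnant minus non-pregnant heifers was 2.19, NKG7 was 1.59 and GATA3 was -0.17 on the log2 scale. These are also the heifers with the most LCK and GATA3, and 94 and 113 have the most NKG7, so these shifts follow from the choice of heifers left out, and only heifers 101 and 115 remain in that group. With any 1 heifer left out, LCK kept its sign in pregnant minus non-pregnant heifers, from -1.41 to -0.75. Without heifer 94 alone, NKG7 was -0.17 in AI-preg, 0.19 in NB-preg and 0.01 in pregnant minus non-pregnant heifers.

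The same non-pregnant heifers carried the most neutrophil transcript. The 4 neutrophil genes found, CXCR2, TREM1, CSF3R and S100A12, summed to 13000 CPM in heifer 94, 11400 in heifer 107 and 12200 in heifer 113. The other non-pregnant heifers, 101 and 115, had 557 and 167 CPM, and the pregnant heifers 76.7 to 4130 CPM. S100A12 made up most of these sums, at 11800, 10600 and 10800 CPM in heifers 94, 107 and 113. CXCR2 did not follow the same order, with 85.9 CPM in NB-preg heifer 116 against 65.1 in heifer 94 and 80.3 in heifer 107. CSF3R, the receptor for granulocyte colony-stimulating factor, had 1100, 636 and 1240 CPM in heifers 94, 107 and 113, against 0.402 to 123 in all others. In these bulk samples, fewer cells of a type and less RNA per cell cannot be told apart.

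With a neutrophil score, the mean log2(CPM + 1) of CXCR2 and TREM1, as a covariate in the edgeR fit, the log2 fold change of LCK in pregnant minus non-pregnant heifers was 1.46 in place of -1.10. That of NKG7 was 0.74 in place of -0.53, and that of GATA3 was -0.30 in place of -0.71. In AI-preg and NB-preg minus non-pregnant heifers, the SE of LCK was 1.47 and 1.54 with the covariate, against 0.87 without it. The SE of NKG7 was 0.96 and 0.91, against 0.60, so the fit with the covariate does not settle the sign of either gene. All 3 genes remained uncalled with the covariate, and the fit called 0 genes in all. The score itself was 5.45, 5.80 and 6.32 in heifers 94, 107 and 113 and at most 4.68 in any other heifer, so score and group overlap in part, and their shares in the values cannot be told apart.

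**Figure D3:**
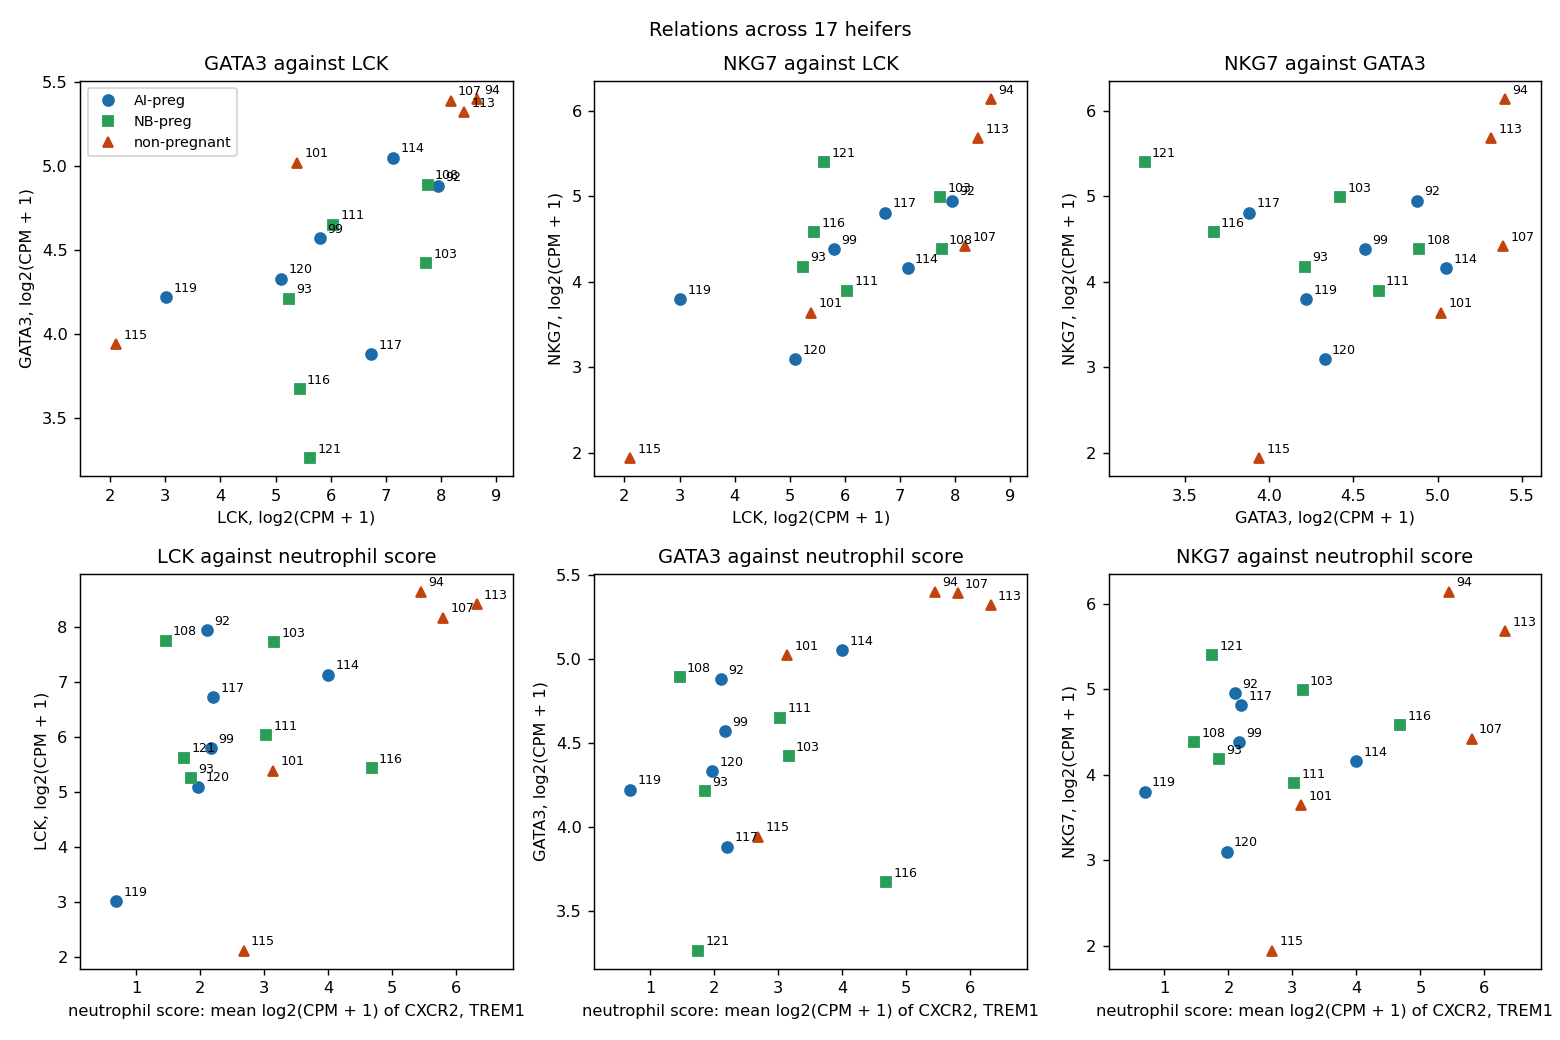
Upper panels plot LCK, GATA3 and NKG7 against each other and lower panels plot each against the neutrophil score, all as log2(CPM + 1), for 17 heifers marked by group and number. LCK and NKG7 lie along a common line from heifer 115 to heifer 94, while GATA3 and NKG7 scatter.

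Relations among the 3 genes were measured over all 17 heifers as log2(CPM + 1), with two-sided permutation tests of 100000 resamples and adjustment over 9 relations. LCK and NKG7 had a Pearson r of 0.776 (permutation p = 0.00019, adjusted p = 0.00171) and a Spearman rho of 0.757 (permutation p = 0.0007, adjusted p = 0.0063). Without heifers 115 and 119, which lay farthest from the median of LCK, r was 0.643 (permutation p = 0.0087). Within AI-preg heifers r was 0.669 (exact permutation p = 0.142, n = 6) and within NB-preg heifers 0.107 (exact permutation p = 0.846, n = 6). The relation over all heifers therefore did not pass a test within either group of 6. No r is given within the 5 non-pregnant heifers, since relations were measured only over 6 heifers or more. With each value less the mean of its group, r was 0.781 over the 17 heifers. That r includes the non-pregnant heifers, whose spread was the widest, with SDs of log2(CPM + 1) of 2.81 for LCK and 1.68 for NKG7. In NB-preg heifers these SDs were 1.14 and 0.55, and in AI-preg heifers 1.76 and 0.68.

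LCK and GATA3 had a Pearson r of 0.626 (permutation p = 0.00689, adjusted p = 0.031) and a Spearman rho of 0.699 (permutation p = 0.00231, adjusted p = 0.0104) over 17 heifers. Without heifers 115 and 119, r was 0.662 (permutation p = 0.00771). Within AI-preg heifers r was 0.494 (exact permutation p = 0.319, n = 6) and within NB-preg heifers 0.648 (exact permutation p = 0.15, n = 6). The size of this relation changed little with single heifers left out, from 0.576 to 0.685, but it lay near the threshold. Its r was 0.576 without heifer 94 (adjusted permutation p = 0.0873), 0.590 without heifer 107 (0.0698) and 0.586 without heifer 113 (0.0745), and 0.425 without all 3 (0.593). With TMM factors in place of library totals r was 0.557 (adjusted permutation p = 0.0583), and with each value less the mean of its group it was 0.713 (adjusted permutation p = 0.00562).

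GATA3 and NKG7 did not pass the test. Their Pearson r was 0.240 (permutation p = 0.356, adjusted p = 0.534) and their Spearman rho 0.172 (permutation p = 0.509, adjusted p = 0.764) over 17 heifers. NB-preg heifers 116 and 121, low in GATA3 and at or above the NB-preg median of NKG7, lay farthest from the median of GATA3, and r was 0.560 without them (permutation p = 0.028). Within NB-preg heifers r was -0.673 (exact permutation p = 0.144, n = 6), and within AI-preg heifers 0.129 (exact permutation p = 0.814, n = 6).

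The neutrophil score had an r of 0.543 with LCK (permutation p = 0.0247, adjusted p = 0.0557) and a rho of 0.527 (permutation p = 0.0312, adjusted p = 0.0702). Its r with GATA3 was 0.549 (permutation p = 0.0224, adjusted p = 0.0557), with a rho of 0.527 (permutation p = 0.0309, adjusted p = 0.0702). With NKG7 its r was 0.403 (permutation p = 0.11, adjusted p = 0.199), with a rho of 0.336 (permutation p = 0.188, adjusted p = 0.338). With the pair at the greatest distance from the median score, heifers 107 and 113, left out, the r values were 0.389, 0.337 and 0.315. The score thus had a positive r with each gene over all heifers, none of which passed after adjustment, and each was lower without these 2 heifers. Without heifers 114, 115, 116 and 121 the 3 r values were 0.689, 0.777 and 0.610, and all 3 passed, with adjusted permutation p values of 0.0276, 0.00778 and 0.0485. Without heifers 94, 107 and 113, the alternative chosen after the data were seen, they were 0.193, 0.082 and 0.004. These heifers have the 3 highest scores and the most LCK and GATA3, so a lower r follows in part from leaving them out. Single heifers also decided which side of the threshold the score fell on. Its r with LCK passed without heifer 92, 108, 115 or 116, at 0.605, 0.632, 0.622 and 0.595 (adjusted permutation p = 0.0402, 0.0272, 0.0351 and 0.035). Its r with GATA3 passed without heifer 92, 108 or 116, at 0.585, 0.613 and 0.707 (adjusted permutation p = 0.0412, 0.0272 and 0.00918). With TMM factors r with GATA3 was 0.646 (adjusted permutation p = 0.0239), and with values less the group mean r with LCK was 0.625 (adjusted permutation p = 0.0203). The neutrophil genes differed among themselves, as a description without a test. Over 17 heifers r with LCK was 0.322 for CXCR2, 0.777 for TREM1, 0.700 for CSF3R and 0.913 for S100A12, and r with NKG7 was 0.237, 0.578, 0.496 and 0.727 in the same order.

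Within the pregnant groups the relation with the score had no common direction. Its r with LCK was 0.709 in AI-preg heifers (exact permutation p = 0.131, n = 6) against -0.203 among NB-preg heifers (exact permutation p = 0.729, n = 6). With GATA3 it was 0.616 (exact permutation p = 0.157, n = 6) and -0.206 (exact permutation p = 0.678, n = 6), and with NKG7 0.194 (exact permutation p = 0.778, n = 6) and -0.070 (exact permutation p = 0.885, n = 6). No relation with depth passed the test over the 17 heifers. The log10 library total had an r of 0.021 with LCK (permutation p = 0.935), -0.096 with GATA3 (permutation p = 0.714) and 0.074 with NKG7 (permutation p = 0.779), and rho values of -0.007, -0.103 and -0.032 (permutation p = 0.981, 0.695 and 0.907). Without heifers 99 and 101, the deepest and the shallowest library, these r values were -0.014, -0.012 and -0.018. Without heifers 114, 115, 116 and 121, r of the library total with GATA3 was -0.589 (adjusted permutation p = 0.0509).

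The balance of the 3 genes within a library also differed widely between heifers. The ratio of LCK counts to GATA3 counts, in which library size cancels, had a median of 4.35 over 17 heifers and ran from 0.231 in non-pregnant heifer 115 to 10.3 in an NB-preg heifer. In non-pregnant heifers it was 9.73, 1.31, 7.05, 8.81 and 0.231 for heifers 94, 101, 107, 113 and 115. The ratio of NKG7 to GATA3 ran from 0.197 in heifer 115 to 4.79 in an NB-preg heifer, with group medians of 0.802 in AI-preg, 1.24 in NB-preg and 0.498 in non-pregnant heifers. The ranges of the groups overlapped for both ratios, so neither ratio separates them.

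Genes with a pattern like that of each member were named by the highest Pearson r of log2(CPM + 1) over the 17 heifers, among 2305 genes with a symbol. For LCK these were PREB (r 0.984), EMC10 (0.981), PFDN5 (0.979), GMIP (0.979) and NOSIP (0.978), and 601 of the 10941 other genes had an r above 0.9. EMC10, a subunit of a complex of the endoplasmic reticulum membrane that the study lists as a partner of LCK, ran from 2.09 to 131 CPM. The study drew that pair from the same heifers, so the r of EMC10 with LCK is not independent evidence. NKG7 ranked 1920th and GATA3 3035th by r with LCK, so many other genes followed LCK more closely than these members did.

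For GATA3 the nearest genes with a symbol were TAPBPL (r 0.893), TNIP1 (0.888), SCARB1 (0.880), NOP53 (0.869) and MOCS1 (0.867), and 1 gene of all had an r above 0.9. For NKG7 they were FAM50A (0.852), TOR2A (0.832), MRPL9 (0.830), JUND (0.823) and HSPB1 (0.819), and 0 genes had an r above 0.9. Genes with an r above 0.8 made up 15.4% of genes for LCK, 1.89% for GATA3 and 0.384% for NKG7. Over these heifers LCK therefore shared its pattern with many more genes than GATA3 or NKG7 did. LCK itself ranked 85th among genes by r with NKG7 and 1815th by r with GATA3.

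The 3 members were placed among other genes of the same pathways, and the counts and medians of a list include the members in it. Symbols were at hand only for genes in the supplementary tables, which list results from these heifers, so the genes found are not an even sample of a pathway and their directions are not independent evidence. The median log2 fold change of all genes in pregnant minus non-pregnant heifers was 0.11 with library totals, 0.03 with TMM factors and -0.14 with DESeq2, and each list is read against it. In T cell receptor signalling, 6 of 37 listed genes were found, 0 were called in any comparison by edgeR's quasi-likelihood test, and 5 of 6 had a negative log2 fold change in pregnant minus non-pregnant heifers. Their median was -1.05, against 0.11 over all genes, of which 44.4% were negative. The 5 include LCK and PTPRCAP, named after its values were seen, which passed the filter only with 3 non-pregnant libraries, so its direction is not support. SIT1, an adaptor that dampens T cell receptor signals, had medians of 57.5 CPM in AI-preg, 24.3 in NB-preg and 166 in non-pregnant heifers and an r of 0.970 with LCK over 17 heifers. VAV1, an exchange factor downstream of the receptor, had medians of 46.9, 38.0 and 84.3 CPM in the same order.

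PTPRC, the phosphatase CD45 that acts on LCK, was the exception with a log2 fold change of 0.46 ± 0.71 (SE, n = 12 and 5). It stood at 235, 452 and 345 CPM in heifers 94, 107 and 113, where LCK was highest, and at 3230 CPM in heifer 101, and its r with LCK was -0.367 over 17 heifers. PTPRC and LCK thus had different courses across these libraries. Because of PTPRC, the summed abundance of this list was 975 CPM in heifer 94 and 3430 CPM in heifer 101, an order opposite to that of LCK.

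Of the transcription factors of T cells, 4 of 28 were found and 0 were called by edgeR's quasi-likelihood test. Against 44.4% of all genes, 2 of 4 had a negative log2 fold change in pregnant minus non-pregnant heifers. These were GATA3 and STAT6, which acts with GATA3 in the interleukin 4 response and had medians of 17.3 CPM in AI-preg, 12.6 in NB-preg and 35.1 in non-pregnant heifers. ID2 and ID3, inhibitors of E proteins in lymphocytes, had positive log2 fold changes of 0.66 and 0.75, and the median of the list was -0.02. No gene of this list changed sign with TMM factors or DESeq2. ID2 ran against GATA3, with an r of -0.701 over 17 heifers, and was lowest in heifer 113 at 26.6 CPM and highest in heifer 115 at 217 CPM. In the GATA family, 2 of 6 genes were found and 0 were called by edgeR's quasi-likelihood test. Both had a negative log2 fold change in pregnant minus non-pregnant heifers, against 44.4% of all genes. GATA1 reached 2 CPM in 5 libraries only with 3 non-pregnant ones among them, so its direction is not support. GATA1, a factor of red cell, platelet and eosinophil lineages, stood at 5.68, 7.85 and 3.68 CPM in heifers 94, 107 and 113, at 2.94 in AI-preg heifer 114 and at 3.20 in NB-preg heifer 103. It was under 0.5 CPM in the others, including 4 heifers with a count of 0, which allows up to 3 counts, or 0.719 CPM in heifer 101.

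Among receptors for cytokines and chemokines on T and NK cells, 6 of 23 genes were found and 0 were called by edgeR's quasi-likelihood test. In pregnant minus non-pregnant heifers 5 of 6 had a negative log2 fold change, against 44.4% of all genes, with a median of -0.94. The exception, CCR4, named after its values were seen, was 0.14 with library totals, -0.03 with TMM factors and -0.23 with DESeq2. JAK3, the kinase that binds the common gamma chain, had medians of 73.7 CPM in AI-preg, 60.6 in NB-preg and 203 in non-pregnant heifers, and an r of 0.896 with LCK and 0.786 with GATA3. IL2RG, the common gamma chain itself, had medians of 206, 170 and 350 CPM in the same order. IL27RA had 41.0, 23.1 and 100 CPM, and IL12RB1 had 13.4, 6.99 and 24.9 CPM. Over 17 heifers r with LCK was 0.763 for IL2RG, 0.906 for IL27RA and 0.849 for IL12RB1, and r with NKG7 was 0.509, 0.568 and 0.556, a difference that was not tested.

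The list of NK cell and cytotoxic granule genes had 9 of 42 found and 0 called by edgeR's quasi-likelihood test. In pregnant minus non-pregnant heifers 6 of 9 had a negative log2 fold change, against 44.4% of all genes, with a median of -0.53. In AI-preg minus non-pregnant heifers 5 of 9 were negative, against 42.2% of all genes. With TMM factors and with DESeq2 the first count was 7 of 9, as SLAMF6, at 0.01, was then negative (-0.15 and -0.33). TYROBP, a signalling adaptor of NK and myeloid cells, had medians of 20.8 CPM in AI-preg, 18.1 in NB-preg and 162 in non-pregnant heifers. Its log2 fold change was -2.26 with an unadjusted p of 0.00876 and an adjusted p of 0.506 in edgeR. FCGR3A, the Fc receptor CD16, had medians of 186, 145 and 182 CPM. SLAMF6, a receptor of T, B and NK cells and the most abundant gene of the list, had 473, 458 and 308 CPM, and it ran against NKG7 with an r of -0.739 over 17 heifers.

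NKG2A, an inhibitory receptor of NK cells singled out after its values were seen, had the highest log2 fold change of its list in pregnant minus non-pregnant heifers, at 1.90. It had medians of 25.2 CPM in AI-preg, 12.7 in NB-preg and 3.84 in non-pregnant heifers. In the non-pregnant heifers it stood at 0.904 CPM in heifer 94, 3.84 in heifer 101, 2.82 in heifer 107, 8.11 in heifer 113 and 11.7 in heifer 115. Its log2 fold change in AI-preg minus non-pregnant heifers was 2.27 with an unadjusted p of 0.00326 and an adjusted p of 0.780 in edgeR, and it is in the study's own list for that comparison, so its direction is not independent evidence. In pregnant minus non-pregnant heifers 5 of the 9 genes of the list had an unadjusted p under 0.05, against 9.01% of all genes tested, and the 9 were found only through tables of the study's results. Besides NKG2A and TYROBP these were GZMB, CTSW and HCST, also named after their values were seen, with log2 fold changes of -2.81, -2.0 and -1.89 and adjusted p values of 0.506, 0.532 and 0.538 in edgeR. GZMB passed the filter through 4 non-pregnant heifers and 1 AI-preg heifer, so its direction is not support.

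**Figure D4:**
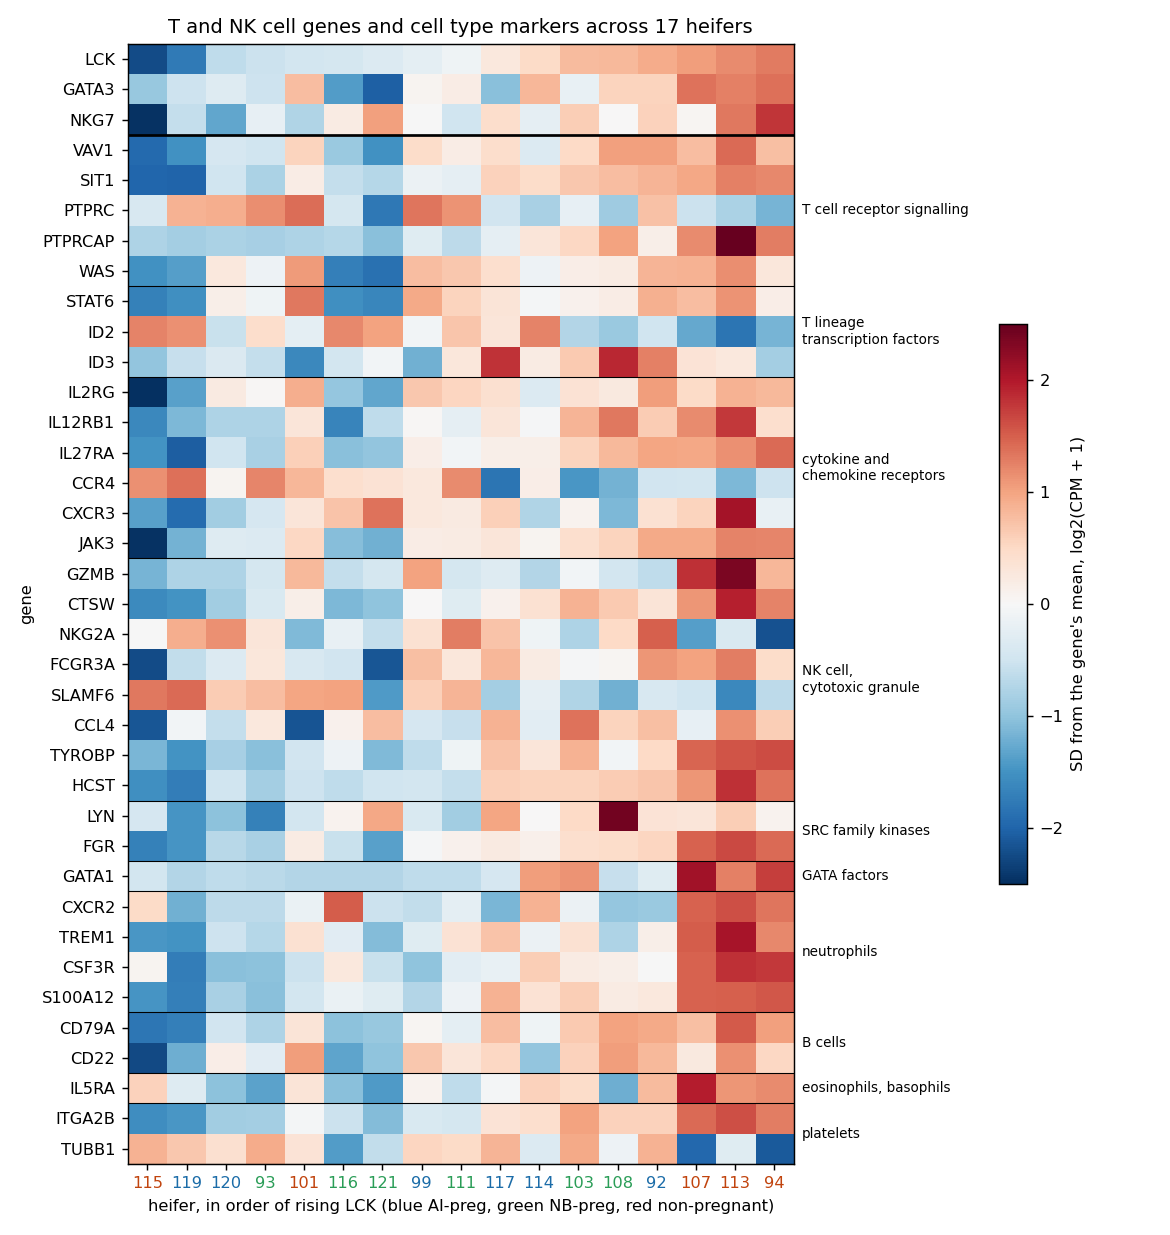
Genes run down and heifers across, ordered by rising LCK, and the colour gives the distance of log2(CPM + 1) from the gene's mean in SD over 17 heifers. Most genes go up from left to right with LCK, and PTPRC, ID2, CCR4, SLAMF6, NKG2A and TUBB1 do not.

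LCK was also set beside FGR and LYN, kinases of its own family, neither of which was called by edgeR's quasi-likelihood test. FGR, a kinase of myeloid cells, had medians of 162 CPM in AI-preg, 133 in NB-preg and 514 in non-pregnant heifers. Its log2 fold change in pregnant minus non-pregnant heifers was -1.39, and that of LYN was 0.09 with library totals, 0.03 with TMM factors and -0.14 with DESeq2. LYN, a kinase of B cells and myeloid cells, differed little, with medians of 1070, 1290 and 1190 CPM. FGR had an r of 0.904 with LCK over 17 heifers and LYN of 0.579. The course of FGR was thus like that of LCK over these libraries, but this is not particular to the kinase family. An r with LCK above 0.9 was found for 601 of the 10941 other genes.

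Markers of other blood cells followed LCK to different degrees, and edgeR's quasi-likelihood test called 0 of the neutrophil, B cell, eosinophil and platelet genes. CD79A, of the B cell receptor, had an r of 0.917 with LCK and medians of 56.3 CPM in AI-preg, 29.6 in NB-preg and 167 in non-pregnant heifers. CD22, the more abundant of the 2 B cell genes found of 5, had medians of 227, 157 and 277 CPM, and the pair summed to 11.3 CPM in heifer 115 and 1110 CPM in heifer 113. ITGA2B, an integrin of platelets, had an r of 0.933 with LCK, whereas TUBB1, the platelet tubulin and the more abundant of 2 found of 6, had one of -0.440. TUBB1 stood at 0.0646 CPM in heifer 94, from 1 count, and at 1530 CPM in heifer 115. IL5RA, the only gene found of 10 for eosinophils and basophils, had medians of 10.5, 4.67 and 21.2 CPM and an r of 0.416 with LCK. In pregnant minus non-pregnant heifers the median log2 fold change was -2.46 for the 4 neutrophil genes and -0.96 for the 2 B cell genes, and IL5RA had -1.38. The 2 platelet genes had opposite signs, at -1.93 for ITGA2B and 0.98 for TUBB1, and their median was -0.48 with library totals, -0.77 with TMM factors and -0.95 with DESeq2. The part of cell composition in the values of LCK, GATA3 and NKG7 was not tested beyond the fit with the neutrophil score.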

How the data were processed

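The table deposited by the authors holds raw counts of read pairs per gene, with no filter. Per the submitters' processing notes, reads were aligned with HISAT2 2.1.0 to ARS-UCD1.2 and counted with featureCounts 1.6.0 on Ensembl genes, of a release that differs between the methods text and the code. Genes with at least 2 CPM of the whole library in 5 libraries were kept, and printed CPM are scaled to the total of these genes in each library. They were fitted with 3 groups in edgeR 4.0.16 (robust quasi-likelihood, no TMM factors, 2-sided tests), and with DESeq2 1.42.0 and edgeR's likelihood ratio test as alternatives, in R 4.3.3. Python 3.11.15 with scipy 1.17.1 gave correlations of log2(CPM + 1), with 100000 permutations over 17 heifers and exact ones within groups of 6. Relations were adjusted over 9, and over 18 within groups. Genes were named by rule: the 3 members, EMC10, the 5 genes with a symbol most like each member by Pearson r, CXCR2 and TREM1, and of each list any gene past the adjusted p and the 4 most abundant by mean CPM. NKG2A, GZMB, CTSW, HCST, PTPRCAP and CCR4 were added after their values were seen. A summary of the SRC kinases is not reported here. The members and lists, for T cell receptor signalling, T cell transcription factors, receptors, NK and cytotoxic granule genes, SRC kinases, GATA factors and blood cell types, were chosen with earlier results of these data known. Alternatives were TMM factors, other filters, 2 groups in the fit, a neutrophil score as covariate, values less the group mean, and heifers left out.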

Additional observations from a re-analysis of the deposited data

Results flagged for a closer look

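GATA3 in non-pregnant heifer 115 lay far below the other non-pregnant heifers. On the log2(CPM + 1) scale its gap to the nearest of them was 0.739 of the range of the group (Dixon's ratio, n = 5). On the linear scale the value was 14.4 CPM from 117 counts, with a 95% Poisson interval of 11.9 to 17.2, against 31.4 to 41.2 CPM in heifers 94, 101, 107 and 113. Chance alone marks about 1 in 20 groups in this way, and 18 such comparisons were made. Heifer 115 was also the lowest of all heifers in LCK and NKG7 and lay in the cluster with heifers 114, 116 and 121. The cause was not tested.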

How the results depend on the processing

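No paired analysis was possible because the groups share no heifers, and heifer numbers do not match animals across groups. LCK, GATA3 and NKG7 passed an adjusted p of 0.05 in no comparison under any alternative that gave an adjusted p, 26 for each comparison of 2 groups and 25 for pregnant minus non-pregnant. The lowest adjusted p was 0.135, for GATA3 in DESeq2 in pregnant minus non-pregnant heifers.

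With the neutrophil score as covariate, point estimates reversed in AI-preg, NB-preg and pregnant minus non-pregnant heifers, to 1.36, 1.57 and 1.46 for LCK. For NKG7 they reversed to 0.63, 0.86 and 0.74. In the first 2 of these comparisons the SE was 1.47 and 1.54 for LCK and 0.96 and 0.91 for NKG7. Without heifers 94, 107 and 113, chosen after seeing the data, the log2 fold changes were 2.15, 2.23 and 2.19 for LCK and 1.42, 1.77 and 1.59 for NKG7. Without heifers 114, 115, 116 and 121, GATA3 in AI-preg minus NB-preg was -0.16. With 1 heifer left out, NKG7 ranged from -1.0 to -0.17 in AI-preg minus non-pregnant, from -0.65 to 0.19 in NB-preg minus non-pregnant and from -0.82 to 0.01 in pregnant minus non-pregnant, above 0 without heifer 94 in the last 2, and LCK from -0.60 to 0.28 in AI-preg minus NB-preg. GATA3 kept its sign with any 1 heifer left out, from -0.77 to -0.47 in AI-preg, -1.04 to -0.70 in NB-preg and -0.91 to -0.63 in pregnant minus non-pregnant heifers. So did LCK, from -1.66 to -0.79, -1.41 to -0.71 and -1.41 to -0.75. The cause was not tested.

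The count of genes called was 0 in each comparison with any 1 heifer left out. DESeq2 called 5 genes in AI-preg, 11 in NB-preg and 44 in pregnant minus non-pregnant heifers, and the likelihood ratio test 18 in the last. With every gene that had a count (19661), 3 were called in pregnant minus non-pregnant, and without heifers 114, 115, 116 and 121, 16 in AI-preg and 52 in pregnant minus non-pregnant. The median log2 fold change of all genes in AI-preg minus non-pregnant heifers was 0.15 with library totals, 0.02 with TMM factors and -0.16 with DESeq2.

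LCK with NKG7 stayed past the threshold in all 22 alternatives, with r from 0.648 to 0.832. With TMM factors, r was 0.557 for LCK with GATA3, 0.646 for the score with GATA3, -0.025 for library total with LCK and -0.009 with NKG7. Without heifers 114, 115, 116 and 121 the score had r of 0.689 with LCK, 0.777 with GATA3 and 0.610 with NKG7, and library total -0.288 with LCK, -0.589 with GATA3 and -0.120 with NKG7. Without heifers 94, 107 and 113, r was 0.425 for LCK with GATA3, -0.123 for GATA3 with NKG7 and 0.047 for library total with GATA3. Less the group mean, the score had 0.625 with LCK and library total 0.198 with GATA3. With 1 heifer left out, r ranged from 0.576 to 0.685 for LCK with GATA3. For GATA3 with NKG7 it ranged from 0.092 without heifer 94 to 0.463 without heifer 121. For the score it ranged from 0.451 to 0.632 with LCK, from 0.471 to 0.707 with GATA3 and from 0.28 to 0.488 with NKG7. For library total it ranged from -0.173 to 0.101 with LCK and from -0.25 to 0.0 with GATA3. The r of library total with NKG7 ranged from -0.134 to 0.161. The cause was not tested.

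Depth limits single values most in non-pregnant heifers 101 and 115, where NKG7 rests on 48 and 23 counts. Intervals cover counting error only. With 5 or 6 heifers per group, the 95% intervals of LCK spanned more than 3 log2 units in the comparisons of 2 groups.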
